A study of Mus musculus with 3 samples.

Results

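Twist1 occupancy was examined around 41 genes of the mitogen-activated protein (MAP) kinase cascade and of Ras regulation in endocardial cushion cells (ECCs) of mouse embryos at E12.5, in forelimb buds at E10.5 and in a cell line from a peripheral nerve sheath tumor (PNST). The members were the MAP kinases, the kinases upstream of them, Ras proteins, Ras exchange factors, Ras GTPase-activating proteins and the inhibitors Spred1 and Spry2. A peak was counted for a gene when the peak list named that gene on either side at a distance of 0 to 50000 bp. Of the 41 genes, 34 were named somewhere in the lists, which name 14619 genes in all, and 33 had a peak by this rule. The rule gave 17 peaks in ECCs, 70 in the limb buds and 14 in PNST cells, or 101 of 67468 peaks in the lists.

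Each tissue was represented by 1 chromatin immunoprecipitation sequencing (ChIP-seq) sample, made with the same anti-Twist1 antibody and, by the labels, from the same mouse strain, FVB/N. The ECCs came from the atrioventricular canal of wild-type embryos, the forelimb buds were dissected from wild-type embryos, and the PNST cells are a mouse tumor cell line grown on plates. Embryos of several litters, or plates of cells, were pooled into each sample, so that no sample has a replicate and no difference between tissues could be tested. The lists hold no expression values, so that the tissue labels could not be checked against marker genes. Depth differed, with 3149934 tags after duplicate filtering in ECCs, 14893391 in the limb buds and 11823220 in PNST cells. The limb bud list held 48965 of the 67468 peaks, or 72.6%. It is several times longer than the limb bud list that the study describes, which came from fewer reads, whereas the lists of the other tissues are near the described length. Every limb bud count below therefore refers to the longer, deposited list. The weakest listed peak held 5 tags in ECCs, 8 in the limb buds and 7 in PNST cells, equal to 1.59, 0.537 and 0.592 tags per 1000000 filtered tags of the sample, called depth-scaled tags below. A region with the same depth-scaled tags in each sample can thus be listed in the limb buds and be too weak to be listed in ECCs.

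MAP kinase cascades pass signals from the cell surface to the nucleus through kinases that phosphorylate each other in turn. A MAP kinase kinase kinase (MAP3K) activates a MAP kinase kinase (MAP2K), which activates a MAP kinase of the ERK, JNK or p38 class. Ras is a GTPase that starts the ERK branch by recruiting Raf kinases, exchange factors such as Sos1 and Sos2 load it with GTP, and GTPase-activating proteins return it to the inactive state. Fibroblast growth factor signaling through this pathway is needed for limb bud outgrowth, and loss of the Ras GTPase-activating protein neurofibromin is a known cause of nerve sheath tumors. Twist1 is a basic helix-loop-helix factor that binds E-box sites, spelled CANNTG, a motif that reads the same on both strands.

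Sequences under shared or strongly tagged peaks are shown first, since the values below refer to what these regions are made of. They are read from mm9 on the plus strand, 5′ to 3′, with E-boxes in capitals. The first are the stretches common to the ECC and limb bud peaks in intron 2 of Sos2 at chr12:70755051-70755330 and in intron 7 of Map3k7 at chr4:32074752-32074929, the limb bud and PNST overlap in intron 9 of Mapk14 at chr17:28870679-28870761, and the ECC peak beside Rasa2 at chr9:96435664-96435869. The last pair, an ECC peak beside Map4k4 at chr1:40104636-40104798 and a limb bud peak in intron 1 of Map2k1 at chr9:64085306-64085468, is shown because these peaks near different genes hold nearly the same sequence.
Sos2 intron 2: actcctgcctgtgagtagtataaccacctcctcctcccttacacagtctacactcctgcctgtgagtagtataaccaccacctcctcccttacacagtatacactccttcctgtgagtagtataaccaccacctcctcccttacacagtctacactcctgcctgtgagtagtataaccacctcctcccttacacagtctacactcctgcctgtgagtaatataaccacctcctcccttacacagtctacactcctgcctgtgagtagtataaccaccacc
Map3k7 intron 7: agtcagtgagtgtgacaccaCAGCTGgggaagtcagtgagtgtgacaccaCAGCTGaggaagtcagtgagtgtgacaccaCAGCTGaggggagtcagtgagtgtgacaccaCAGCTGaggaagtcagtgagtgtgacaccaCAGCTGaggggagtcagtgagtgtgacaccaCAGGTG
Mapk14 intron 9: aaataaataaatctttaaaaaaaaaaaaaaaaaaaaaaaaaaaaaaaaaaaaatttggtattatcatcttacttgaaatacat
Rasa2 ECC peak: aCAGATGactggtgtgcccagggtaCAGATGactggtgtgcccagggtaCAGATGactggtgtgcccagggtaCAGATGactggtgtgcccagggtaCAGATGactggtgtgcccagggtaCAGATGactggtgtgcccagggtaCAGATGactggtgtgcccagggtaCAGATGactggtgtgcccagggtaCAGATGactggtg
Map4k4 ECC peak: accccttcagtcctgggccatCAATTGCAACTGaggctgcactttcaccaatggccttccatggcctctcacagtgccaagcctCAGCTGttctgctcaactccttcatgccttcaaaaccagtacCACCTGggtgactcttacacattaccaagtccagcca
Map2k1 limb bud peak: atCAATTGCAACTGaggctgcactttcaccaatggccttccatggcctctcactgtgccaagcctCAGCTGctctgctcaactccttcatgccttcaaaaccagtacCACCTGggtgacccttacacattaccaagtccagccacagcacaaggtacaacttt

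Members with a peak numbered 13 in ECCs, 29 in the limb buds and 13 in PNST cells. These were 38.2%, 85.3% and 38.2% of the 34 members named in the lists, with 95% Wilson intervals of 23.9 to 55.0%, 69.9 to 93.6% and 23.9 to 55.0%. Among all 14619 named genes, 36.3% had a peak within 50 kb in ECCs, 87.5% in the limb buds and 23.6% in PNST cells. The members' shares in ECCs and limb buds were near these values, and the share in PNST cells was above it, with a lower bound just over 23.6%. Against the 22238 protein-coding gene names of GENCODE vM1, whether named in the lists or not, the background was 22.5%, 53.9% and 14.6%. The shares of the 41 members were 31.7% (19.6 to 47.0%), 70.7% (55.5 to 82.4%) and 31.7% (19.6 to 47.0%). By this count the limb bud and PNST intervals lay above the background, and the ECC interval included it. The members were chosen with earlier results of these data known, and the genes of a tissue share a library. Neither these intervals nor the PNST lower bound above can therefore be read as enrichment of the members. The order of the tissues depended on the strength required of a peak. At a fold enrichment of 20 or more, 11 members kept a peak in ECCs, 5 in the limb buds and 3 in PNST cells. When peaks had to reach the depth-scaled tags of the weakest ECC peak, the counts were 13, 2 and 2. The larger number of members in limb buds than in ECCs was thus reversed under both settings. The second setting keeps every ECC peak by its definition. As to the first, the median fold enrichment of all peaks within 50 kb of a gene was 27.61 in ECCs and 14.53 in limb buds. All genes were not counted at these settings, so that the reversal cannot be read as a trait of the members. The members are long genes, with a median length of 69.3 kb against 15.5 kb for protein-coding genes, and the part of length in these shares was not tested.

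A peak in every tissue was found for 5 members, namely Mapk14, Map2k6, Map4k4, Sos2 and Rasgrf2. This is 14.7% of the named members (6.45 to 30.1%), beside 1538 of all 14619 named genes, and 12.2% of the 41 members (5.32 to 25.5%), beside 6.56% of protein-coding names. Limb buds alone had a peak near 12 members, among them Mapk3, Mapk8, Mapk10, Hras1, Sos1, Spred1 and Spry2, or 35.3% of the named members (21.5 to 52.1%), beside 46.4% of all named genes. Peaks in ECCs and limb buds but not in PNST cells were found for 6 members, namely Map2k1, Map3k4, Map3k7, Braf, Map4k3 and Rasa2, or 17.6%, beside 21.0%. Limb buds and PNST cells alone shared another 6, namely Mapk4, Map2k4, Map3k1, Map3k5, Rasgrf1 and Rasa1, or 17.6% (8.35 to 33.5%), beside 9.56%. Only Map2k2 and Map2k3 had a peak in ECCs alone, and only Map2k5 and Map3k2 in PNST cells alone, each pair being 5.88% of the named members, beside 4.23% and 2.98%. No member had peaks in ECCs and PNST cells without 1 in limb buds, a pattern of 0.568% of named genes. The members' intervals include the share of all named genes for each of these patterns. The patterns count only peaks for which the lists name the member. Peaks of a further tissue that name another gene lie within 50 kb of Map2k3, Map3k2, Hras1, Map4k5, Mapk13 and Sos1, as given at the end. The other 8 members had no peak, and of these only Rasgrp1 was named in the lists, at distances beyond 50 kb.

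**Figure D1:**
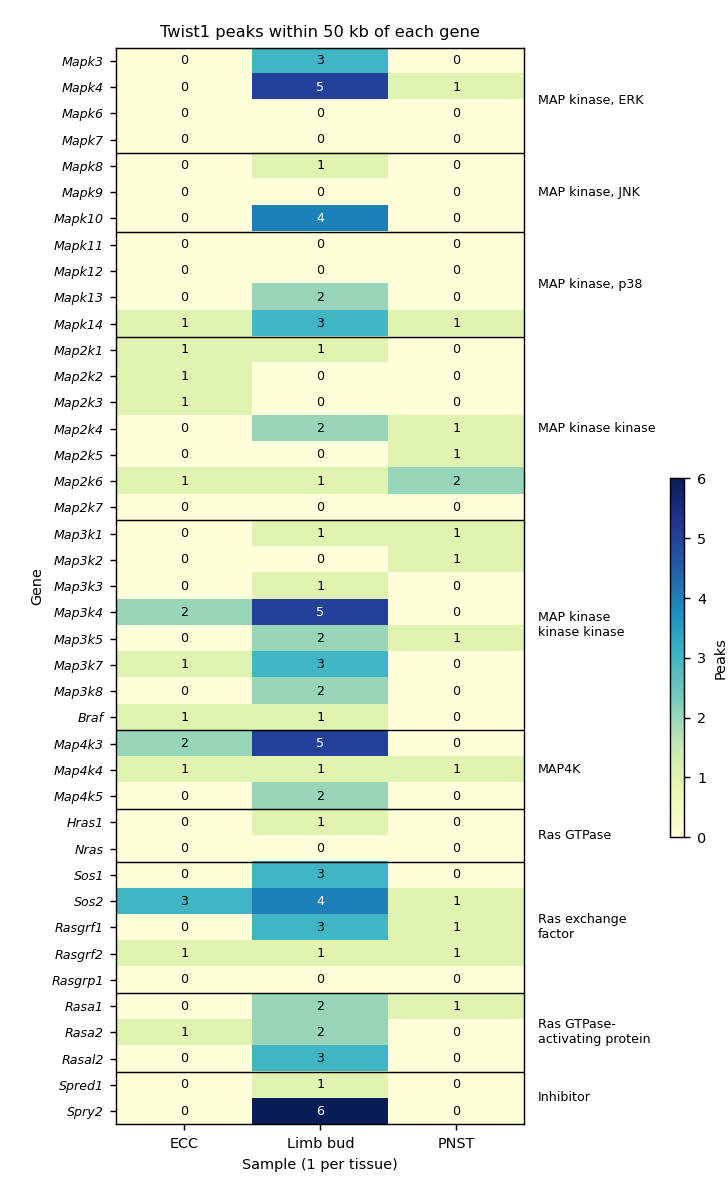
Number of Twist1 peaks within 50 kb of each of the 41 genes (rows, grouped by role) in the ECC, limb bud and PNST samples (columns). Cells give the count, from 0 to 6, and the limb bud column holds 70 peaks, 1 of them counted for both Mapk13 and Mapk14, against 17 in ECCs and 14 in PNST cells.

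The MAP kinases themselves held limb bud peaks near 2 of 4 ERK-class, 2 of 3 JNK and 2 of 4 p38 genes. Of all protein-coding gene names, 53.9% had a limb bud peak. The MAP kinases without one were not named in the lists, and each named MAP kinase had one, beside 87.5% of all named genes. Of the 4 ERK-class genes, Mapk3, which encodes ERK1, had 3 limb bud peaks of 8 to 10 tags, all upstream of its start, and no peak in the other tissues. The atypical kinase Mapk4 had 5 limb bud peaks of 8 to 14 tags and 1 PNST peak of 8 tags, at a different position in its first intron. Mapk6 and Mapk7 had none. Of the 3 JNK genes, Mapk8 had 1 limb bud peak of 8 tags, Mapk10 had 4 of 8 or 9 tags, and Mapk9 had none.

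The p38 class had peaks near Mapk13 and Mapk14, which lie next to each other on chromosome 17, and none near Mapk11 and Mapk12. A limb bud peak of 8 tags, 830 bp upstream of the start of Mapk13, was the only member peak in a promoter and was counted for both genes. In intron 9 of Mapk14, which encodes p38 alpha, a limb bud peak of 8 tags and a PNST peak of 9 tags overlapped by 83 bp, with summits 4 bp apart and a fold enrichment of 14.04 and 24.27. Their common sequence, printed above, has a GC content of 9.64%, a run of 37 A and no E-box. The ECC peak counted for Mapk14 held 6 tags and lay elsewhere, 21546 bp upstream of the start and inside the neighboring gene Slc26a8.

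MAP kinase kinases held the strongest region shared by the 3 tissues. Map2k6, which encodes a kinase that activates p38, had a peak at the same place in intron 1 in each sample, with 52 tags in ECCs, 55 in the limb buds and 31 in PNST cells. As depth-scaled tags these were 16.5 (95% Poisson interval 12.3 to 21.6), 3.69 (2.78 to 4.81) and 2.62 (1.78 to 3.72). The interval in ECCs lay above both others, and those of limb buds and PNST cells overlapped. The fold enrichment was 137.57, 96.98 and 90.14, the highest of any member peak in each tissue. Such intervals cover counting error in 1 library only, and local backgrounds differ between the samples. The region is 23.2 kb downstream of the start, lies on repeated sequence and has no E-box. In each of the 3 peaks, which are 106 to 118 bp long, the unit AGGGTT repeats without a mismatch over 75 bp. Words of 32 bases from the 3 peaks occur in mm9 at a median of 1299 places. A separate PNST peak of 9 tags, with a fold enrichment of 24.27, lay upstream of the gene.

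The other MAP kinase kinases had weak peaks. Map2k1, which encodes the ERK-activating kinase MEK1, had an ECC peak of 7 tags and a limb bud peak of 11 tags in intron 1, separated by 54 bp. Map2k2, which encodes MEK2, had an ECC peak of 5 tags 1708 bp upstream of its start, the member peak nearest to a start site in ECCs. This peak had no repeated 32-base word and 2 E-boxes, CAAATG and CAACTG. Map2k3, another activator of p38, had an ECC peak of 5 tags beyond its end. Map2k4, which activates JNK, had 2 limb bud peaks of 8 and 13 tags and a PNST peak of 7 tags at other positions, and Map2k5 had a PNST peak of 7 tags. Map2k7 had none.

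Each of the 8 MAP kinase kinase kinases had a peak in at least 1 tissue, as had all but 4.72% of the named genes. Peaks were near 3 of them in ECCs, 7 in the limb buds and 3 in PNST cells. The shares of all named genes were 36.3%, 87.5% and 23.6%. In intron 7 of Map3k7, which encodes TAK1, a kinase of transforming growth factor beta and inflammatory signaling, 1 ECC peak of 12 tags overlapped 2 limb bud peaks of 10 and 12 tags. As depth-scaled tags these were 3.81 (1.97 to 6.65) in ECCs and 0.671 (0.322 to 1.23) and 0.806 (0.416 to 1.41) in limb buds. The ECC interval lay above that of each limb bud peak alone. The 2 limb bud peaks divide the stretch under the ECC peak, however, and their tags were not combined, so that no ECC excess follows. The ECC peak holds 11 E-boxes, 10 of them CAGCTG, in a tandem repeat whose E-boxes follow each other along the printed sequence. It thus supplies 10 of the 13 CAGCTG sites in all 17 ECC member peaks.

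Map3k4, which activates p38 and JNK kinases, had 2 ECC peaks of 23 and 6 tags and 5 limb bud peaks of 8 to 18 tags, none of which overlapped. The ECC peak of 23 tags in intron 15 was the second of the ECC member peaks by tags, with 7.30 depth-scaled tags (4.63 to 11.0), but its fold enrichment of 15.87 was the lowest. The ECC peak of 6 tags and a limb bud peak of 18 tags in intron 1 were 92 bp apart. Braf, the Raf kinase directly downstream of Ras, had an ECC peak of 6 tags and a limb bud peak of 10 tags upstream of the gene, which overlapped by 134 bp with summits 3 bp apart. At 1.90 depth-scaled tags (0.699 to 4.15) and 0.671 (0.322 to 1.23), their intervals overlapped. Map3k2, which acts above the ERK5 branch, had no counted peak in the other tissues. It had a PNST peak of 19 tags in intron 15, or 1.61 depth-scaled tags (0.968 to 2.51). This was the second of the PNST member peaks by tags. Map3k5, which encodes the stress kinase ASK1, had 2 limb bud peaks of 9 and 21 tags and a PNST peak of 8 tags, all in introns and apart. Map3k1 had a limb bud peak of 10 tags upstream and a PNST peak of 8 tags just beyond its end. Map3k3 had 1 limb bud peak of 11 tags and Map3k8 had 2 of 8 tags each.

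**Figure D2:**
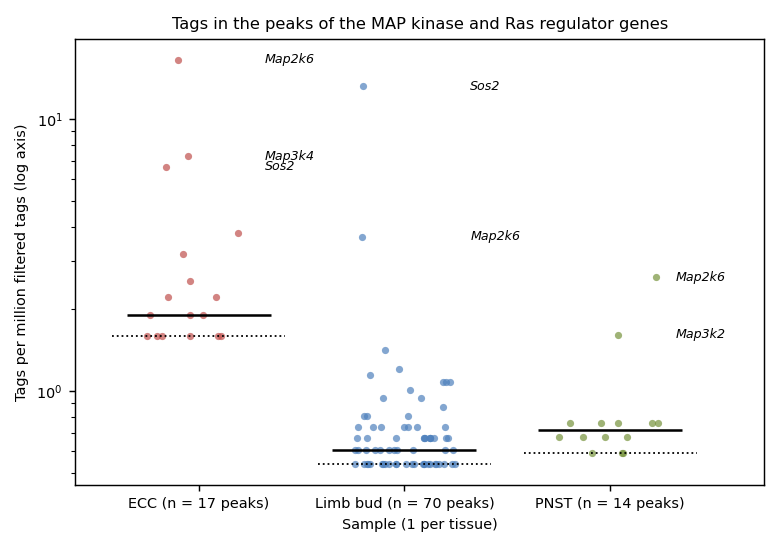
Depth-scaled tags (log axis) in each member peak of the 3 samples. Points are peaks, solid lines are medians (1.90, 0.604 and 0.719 in ECCs, limb buds and PNST cells), dotted lines are the weakest peak in each whole list, and gene names mark the 3 or 2 peaks with the most tags.

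The kinases above the MAP3K level, Map4k3, Map4k4 and Map4k5, all had limb bud peaks, as had 87.5% of all named genes. Map4k4, a kinase that acts on the JNK branch and on cell migration, had peaks in the 3 tissues within 1.02 kb of each other, beyond the end of the gene and at deposited distances of 22774 to 23613 bp. They held 5 tags in ECCs, 15 in the limb buds and 9 in PNST cells, or 1.59 (0.515 to 3.70), 1.01 (0.564 to 1.66) and 0.761 (0.348 to 1.45) depth-scaled tags, and these intervals overlapped. No pair of these peaks overlapped, with gaps of 87 bp between ECCs and limb buds, 369 bp between ECCs and PNST cells and 619 bp between limb buds and PNST cells. Map4k3 had 2 ECC peaks of 5 and 7 tags and 5 limb bud peaks of 8 to 12 tags. Only 18 bp of the weaker ECC peak were shared with a limb bud peak, and 3 of the limb bud peaks, all in intron 13, share stretches of identical sequence of 105 to 123 bp. Map4k5 had 2 limb bud peaks of 8 tags each.

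Of the 2 Ras genes among the members, Hras1 had 1 limb bud peak of 8 tags and Nras had none. Among the exchange factors, Sos2 had peaks in each tissue, 3 in ECCs, 4 in the limb buds and 1 in PNST cells, all in its introns. In intron 2, a limb bud peak of 196 tags, or 13.2 depth-scaled tags (11.4 to 15.1), overlapped an ECC peak of 21 tags, or 6.67 depth-scaled tags (4.13 to 10.2), by 280 bp. This was the largest tag count of the 101 peaks and the only shared region with non-overlapping intervals in which limb buds had more depth-scaled tags than ECCs. The fold enrichment was nevertheless nearly equal, at 48.69 in limb buds and 46.08 in ECCs. No PNST peak was listed there. The common sequence repeats with a period of 51 bp, at which 70.3% of its bases match, and holds no E-box, and the limb bud peak holds a single CACTTG outside it. In both samples 45.7% of its 32-base words are repeated in the genome, so that it belongs to the few member peaks in mostly single-copy sequence.

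In intron 17 of Sos2, peaks of 5 tags in ECCs, 17 in the limb buds and 8 in PNST cells overlapped, at 1.59 (0.515 to 3.70), 1.14 (0.665 to 1.83) and 0.677 (0.292 to 1.33) depth-scaled tags. The fold enrichment was 47.00, 41.75 and 21.24. The tag intervals overlapped, and the summits lay within 6 bp. The words of the limb bud peak occur at a median of 1534 places in mm9. Intron 13 held an ECC peak of 5 tags and a limb bud peak of 16 tags over a CA repeat of 43 bp, and intron 18 a limb bud peak of 10 tags. The related gene Sos1 had 3 limb bud peaks of 9 to 11 tags, and no counted peak in the other tissues. Of these, the peak upstream of Sos1 shares 36 words of 32 bases with the limb bud peak in intron 17 of Sos2, with 95.7% identity over 139 bp.

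**Figure D3:**
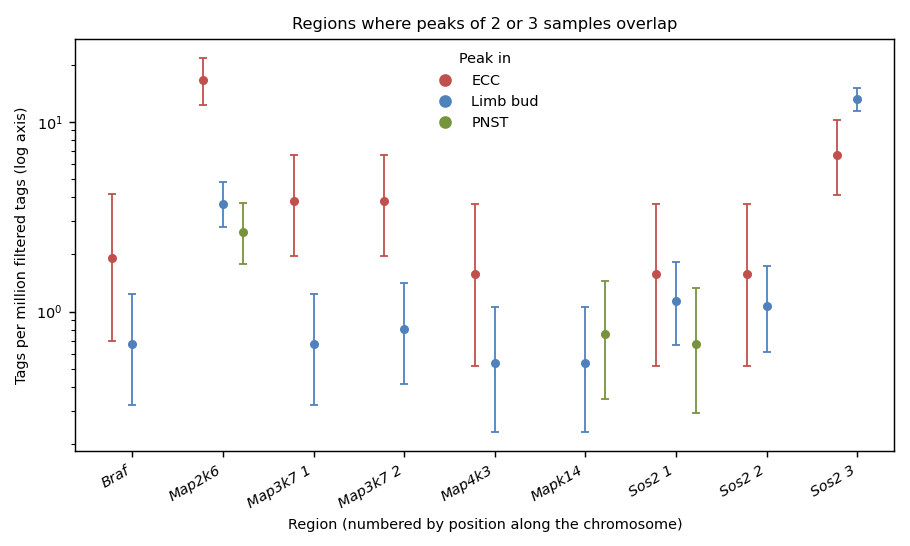
Depth-scaled tags (log axis) for the 9 places where member peaks of 2 or 3 samples overlap, with 95% Poisson intervals for counting error. Map2k6 and Sos2 1 (intron 17) have a point for each sample, Sos2 3 is the intron 2 region, and the same ECC peak stands at both Map3k7 places.

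The study designed a primer pair for Sos2, forward 5′-gctaagcacaggttctgcca-3′ and reverse 5′-tttgtgccatggggataggg-3′, for quantitative PCR after ChIP. Each primer had 1 exact match in mm9, on chromosome 12, and together they delimit a product of 221 bp at chr12:71856048-71856268. This place is 1073209 bp beyond the Sos2 gene at higher coordinates, outside any protein-coding gene of GENCODE vM1, and no peak of the 3 lists overlaps it. The nearest ECC peak, of 10 tags, was 6366 bp away, the nearest limb bud peak 30998 bp and the nearest PNST peak 71208 bp. In mm9 the product thus covers none of the Sos2 peaks described above. By this PCR the study reports Twist1 at its Sos2 region in limb buds, with no binding found in ECCs or PNST cells. The lists used here hold Sos2 peaks in ECCs and PNST cells too, but not all at the same place. The only PNST peak is that of 8 tags in intron 17. No PNST peak is listed in intron 2, where ECCs have a peak of 21 tags. A comparison with the PCR thus depends on which region it covered. Which of the peaks the PCR was meant for cannot be told from the place of the primers in mm9. The study states that it tested the E-box regions of highest fold enrichment in each tissue. In the deposited limb bud list, the Sos2 peaks with an E-box are those in intron 2 (fold enrichment 48.69) and intron 18 (15.66). By that rule alone the intron 2 peak would come first, but this list is longer than the one the study describes. The genome build in which the primers were designed is not given in the sources used here, and a mismatch of builds was not tested.

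Rasgrf2, a calcium-responsive exchange factor, had 1 peak in each tissue, of 10 tags in ECCs, 8 in the limb buds and 9 in PNST cells, spread over 857 kb. The gene spans 882 kb in the mm9 annotation, and whether this part of mm9 is correctly assembled was not tested, so that the distances hold for that build only. In mm9 the gaps between neighboring peaks were 758 kb between ECCs and PNST cells and 99.1 kb between PNST cells and limb buds. Rasgrf1 had 3 limb bud peaks of 8 to 11 tags and a PNST peak of 7 tags, none of which overlapped. The PNST peak lies in intron 2, and 2 of the limb bud peaks in introns 8 and 13. Rasgrp1 had no peak within the limit.

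The Ras GTPase-activating proteins all had limb bud peaks, as had 87.5% of all named genes. Rasa1, which encodes p120 RasGAP, had a limb bud peak of 11 tags in intron 1 and 1 of 10 tags upstream. A PNST peak of 9 tags lay farther upstream. Rasa2 had 2 limb bud peaks of 9 tags and an ECC peak of 8 tags beyond its end. The ECC peak consists of a unit of 24 bp repeated without a mismatch over its length, and each of its 9 E-boxes reads CAGATG. It supplies 9 of the 11 CAGATG sites in the ECC member peaks. Rasal2 had 3 limb bud peaks of 8 to 11 tags within its introns.

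Both inhibitors had peaks in limb buds only, a pattern of 46.4% of all named genes. Spred1, which holds back Raf activation, had a peak of 16 tags in intron 4, or 1.07 depth-scaled tags, with the E-boxes CAGCTG and CAGTTG. Spry2, a target of fibroblast growth factor signaling that feeds back on it, had 6 peaks of 8 to 10 tags, the most of any member in 1 tissue. None lay in the gene, which is 4.87 kb long, and they stood between 11148 and 48223 bp from its start. A limb bud peak of 30 tags lay just beyond the limit, at 51076 bp from Spry2, as did 1 of 12 tags at 50821 bp from Rasa2. Just within the limit were peaks of 8 tags near Map3k8, at 49535 bp, and near Rasgrf2, at 49646 bp.

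**Figure D4:**
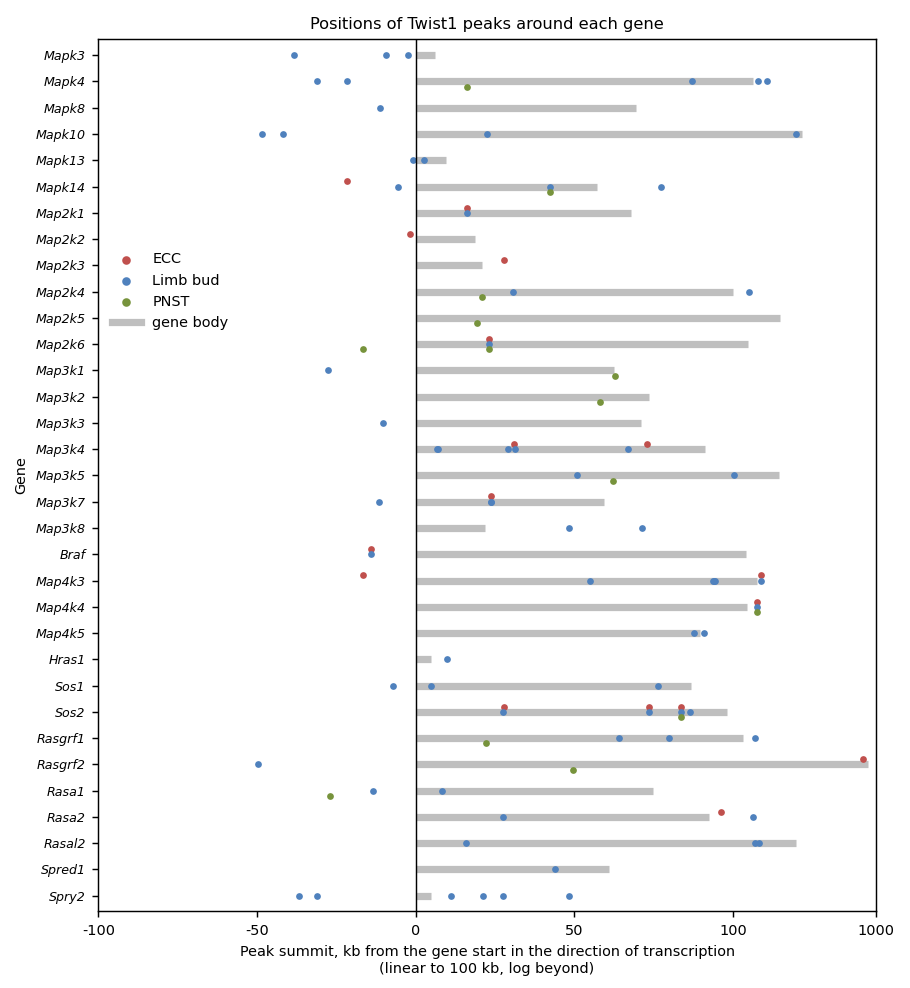
Summits of all member peaks by distance in kb from the gene start in the direction of transcription (linear to 100 kb, log beyond), with gray bars for gene bodies. Peaks of the 3 samples coincide at Map2k6 and in intron 17 of Sos2, lie side by side beyond the end of Map4k4, and are far apart at Rasgrf2 in mm9.

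By count of overlapping peaks, 7 of the 17 ECC member peaks (41.2%, 21.6 to 64.0%) were overlapped over at least 5% of their length by a limb bud peak, beside 33.0% of all ECC peaks within 50 kb of a gene. Of the 70 limb bud peaks, 8 (11.4%, 5.91 to 21.0%) were overlapped by an ECC peak and 3 (4.29%, 1.47 to 11.9%) by a PNST peak, beside 7.84% and 2.67%. Of the 14 PNST peaks, 2 (14.3%, 4.01 to 39.9%) were overlapped by peaks of both other tissues, beside 9.58%, and these were the peaks in Map2k6 and Sos2. No peak of another tissue overlapped 10 ECC, 61 limb bud and 11 PNST member peaks, or 58.8%, 87.1% and 78.6%, beside 66.1%, 90.8% and 79.6% of all such peaks. The intervals of the members' shares include the background in each of these comparisons. Of the 5 members with a peak in each tissue, Map2k6 and Sos2 thus had a position common to the 3 samples, Mapk14 had 1 common to limb buds and PNST cells, and Map4k4 and Rasgrf2 had none.

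The member peaks were as strong as those near other genes. The median was 6 tags in ECCs, 9 in the limb buds and 8.5 in PNST cells, beside 6, 9 and 8 tags for all peaks within 50 kb of a gene. The median fold enrichment was 28.01, 14.29 and 17.7, beside 27.61, 14.53 and 15.17. Scaled to 1000000 filtered tags there were 5.40 member peaks in ECCs, 4.70 in the limb buds and 1.18 in PNST cells, and for all peaks within 50 kb of a gene the numbers were 1909, 1744 and 315, lowest in PNST cells as well. Members with 3 or more peaks numbered 12 of 29 in limb buds (41.4%, beside 34.8% of all genes with a peak), 1 of 13 in ECCs (7.69%, beside 7.81%) and 0 of 13 in PNST cells (beside 5.65%). Members with a limb bud peak had a median length of 89.5 kb, and those without 19.8 kb. As a description over 41 genes that share 1 library, Spearman's rho between gene length and limb bud peaks was 0.36.

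Summits lay in introns for 10 ECC, 37 limb bud and 10 PNST member peaks and between protein-coding genes for 7, 32 and 4. None lay in an exon, and the promoter peak of Mapk13 was the only summit within 1 kb upstream of a start. Summits of all peaks within 50 kb of a gene were not placed in this way. These counts can thus not be read as a trait of the members, which are long genes. The distances in the lists were traced to gene annotation, and for members 50 of 69 distances on the lower side and 70 of 77 on the higher side ended within 2 bp of the lower edge of an exon. Only 1 and 4 of them ended at a transcription start site. What the other distances end at was not traced. For most member distances, 50 kb was thus counted to an exon edge and not to the start, and 10 of 17, 43 of 70 and 9 of 14 member peaks were within 50 kb of the start site itself.

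An E-box was found in 9 of 17 ECC (52.9%, 31.0 to 73.8%), 38 of 70 limb bud (54.3%, 42.7 to 65.4%) and 5 of 14 PNST member peaks (35.7%, 16.3 to 61.2%). Of all peaks within 50 kb of a gene in the same lists, 53.0%, 55.6% and 51.8% held an E-box. Regions of the same length, 1 kb to either side of the member peaks, held 1 in 64.7%, 55.0% and 46.4%. The members' intervals include these values in each tissue. The E-boxes of limb bud member peaks numbered 73, with CACATG or CATGTG, the same site read on opposite strands, at 17 sites in 12 peaks, CAGCTG at 16 sites in 9 peaks and CACCTG or CAGGTG at 12 sites in 8 peaks. Single repeats weigh in these limb bud counts too. The 2 Map3k7 peaks in intron 7 hold 4 E-boxes, all CAGCTG, and 6, all CAGCTG but the last. A Map3k4 peak of 16 tags in intron 1 holds 5 E-boxes, all CACATG. In PNST cells there were 9 sites in all.

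Most member peaks stood on sequence that occurs more than once in mm9. Under 50% of 32-base words were repeated in only 2 of the 17 peaks of ECCs, 2 of the 70 of limb buds and 0 of the 14 of PNST cells, the last of which allows a share of up to 21.5% by the Wilson interval. For all peaks within 50 kb of a gene this share was 6.36%, 1.81% and 4.63%, so that the members do not stand apart in this. The 4 mostly single-copy peaks were those of Map2k2 in ECCs, of Mapk14 intron 9 in limb buds and of Sos2 intron 2 in both tissues. A tag of 50 bp from repeated sequence can match several places equally well, and how the aligner placed such tags is not given in the sources used here.

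Peaks near different members also shared sequence with each other. Of the 101 peaks, 55 held at least 1 word of 32 bases that was also in a peak near another member, in 79 pairs. Such sharing was general in the lists. Of the pairs of member peaks on different chromosomes, 1.69% shared a word, beside 1.88% of such pairs among all peaks within 50 kb of a gene. The ECC peak beside Map4k4 and the limb bud peak in intron 1 of Map2k1, printed above, were 97.9% identical over 144 bp, with the same E-boxes in the same order. In turn, the limb bud peak beside Map4k4 and the ECC peak in intron 1 of Map2k1 were 96.4% identical over 166 bp. At both genes the ECC and limb bud peaks thus stood next to each other on copies of the same repeated sequence, with the tissues exchanged. Other pairs were Map2k4 and Mapk4 in limb buds, 98.4% identical over 127 bp, and Map3k5 and Spry2 in limb buds, 96.5% over 143 bp.

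**Figure D5:**
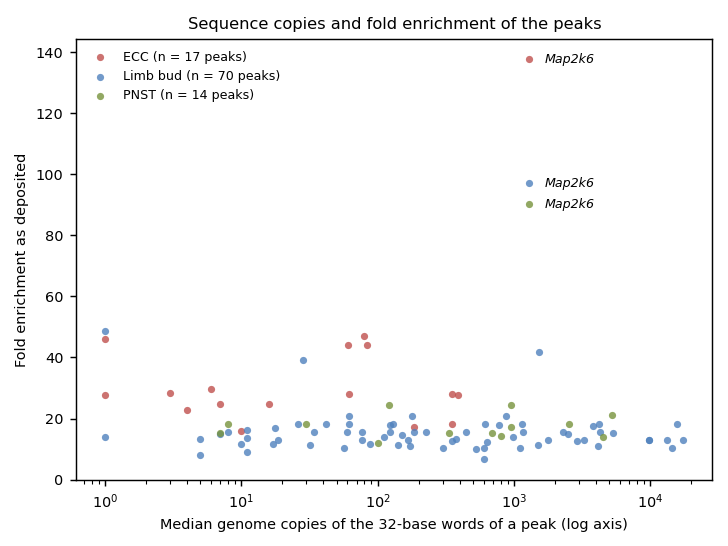
Fold enrichment as deposited against the median number of places in mm9 at which the 32-base words of a peak occur (log axis), for the 17 ECC, 70 limb bud and 14 PNST member peaks. The Map2k6 peaks stand highest, at 90.14 to 137.57, with 1299 places, and most peaks lie far to the right of 1 place.

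The other genes of the pathway were looked up in a list of 118 receptors, adaptors, kinases, phosphatases and transcription factors, chosen with results of these data known. Of these, 84 were named in the lists, and 25 had a peak in ECCs, 70 in the limb buds and 25 in PNST cells. These were 29.8% (21.0 to 40.2%), 83.3% (73.9 to 89.8%) and 29.8% of the named genes, beside the background of 36.3%, 87.5% and 23.6%. Peaks in each tissue were found for 10, namely the receptors Egfr, Met, Ntrk2 and Flt1, the adaptors Grb2 and Gab2, the kinases Nlk, Rps6ka2 and Rps6ka3, and the transcription factor Atf2. These 10 were 11.9% of the 84 named genes (6.60 to 20.5%), beside 1538 of all 14619 named genes. The interval includes the share of all named genes. By count, the kinase Nlk had 1 ECC, 5 limb bud and 1 PNST peak. Rras2 had 5 limb bud peaks and Araf, a Raf kinase, had 2, whereas Mras, Rras and Mapk15 were not named in the lists. Of 18 phosphatases and inhibitors, 15 were named in the lists. Of these 15, 2 had a peak in ECCs, 11 in the limb buds and 4 in PNST cells, beside the same 36.3%, 87.5% and 23.6%. No interval was computed for this class, so that no difference from all named genes is read from it. Chosen after their counts were seen, Nf1, which encodes neurofibromin, had 1 ECC and 3 limb bud peaks and none in PNST cells, Spry4 had 5 limb bud peaks, and Dusp6, an ERK phosphatase, had 1 ECC peak.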

How the data were processed

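Twist1 ChIP-seq was performed by the authors with 1 pooled sample for each of ECCs, limb buds and PNST cells. Single reads of 50 bp were mapped to mm9 with Eland v2 and Bowtie, and peaks were called with MACS 1.4.2 at a p-value of 1e-05 and a band width of 300 bp. Per the file headers there was no control file, while FVB/N genomic DNA is the control in the methods. The deposited tag counts are not normalized for depth, and the deposited fold is summit tags over the background that MACS estimated nearby. The authors deposited p-values as 10 times their −log10, which was read as a score. Tags were scaled to 1000000 filtered tags, whose number the headers give.

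Peaks were assigned to genes by the deposited names and distances. Wilson and exact Poisson 95% intervals cover counting error only. Gene models were those of GENCODE vM1, with intron numbers from the longest protein-coding transcript. Words of 32 bases were counted on both strands of mm9. Scripts ran in Python 3.11.15, with SciPy 1.17.1 and pysam 0.24.0, and were tested on simulated peaks, where 8 of 8 checks were recovered. The genes named were all members, with values of single peaks for those in all 3 tissues, with overlapping peaks, in ECCs or PNST cells alone, or with the most peaks or highest folds, and, of the other pathway genes, those in all 3 tissues and the MAP kinases, Ras GTPases and Raf kinases. Some of these genes and sequences are not reported here. The members and lists were chosen with earlier results of these data known. Alternatives were stricter p-values, folds and distances, the nearer gene only, a minimum of depth-scaled tags, distances by the annotation, other overlap rules, merged peaks and single-copy sequence. Reads, the control and microarray data were not analysed here.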

Additional observations from a re-analysis of the deposited data

How the results depend on the processing

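No paired analysis was possible because each tissue has 1 sample, and no replicate could be left out. Of 55 alternatives, 28 left the value within 1.5 times the reported count or its interval and 27 moved it, through their own stricter rules. With peaks of p 1e-10 or smaller, 5 ECC, 5 limb bud and 2 PNST members kept a peak, from 6, 7 and 2 peaks, and 1 member, Map2k6, had them in every tissue. With a fold enrichment of 20 or more, 11 members in ECCs, 5 in limb buds, 3 in PNST cells and 2 in every tissue (Map2k6 and Sos2) remained. A limit of 10 kb left 7, 19 and 7 members with 10, 37 and 7 peaks, and 1 member, Sos2, in every tissue. When limb bud and PNST peaks had to reach the depth-scaled tags of the weakest ECC peak, 2 limb bud peaks near 2 members and 2 PNST peaks near 2 members remained, and 1 member, Map2k6, in every tissue, beside 13 members in ECCs. An overlap of 50% of both peaks left 5 limb bud peaks overlapped by ECC peaks. Among mostly single-copy peaks, 1 of 2 limb bud peaks was overlapped by an ECC peak, 1 by a PNST peak, and 0 of 2 ECC peaks by a PNST peak; no PNST peak was left to count, and no E-box share could be given for PNST cells. Within 50 bp of the summit, 37.1% of limb bud peaks held an E-box. Summits within 50 kb of a gene by the annotation gave 16, 34 and 16 members with 22, 96 and 16 peaks, and the same 5 members in every tissue. Peaks were not called again at equal depth, so that the effect of depth on the counts was not measured.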

Other observations

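Some peaks lie in or near members but name another gene, or lie beyond 50 kb of an exon, and were not counted above. Mapk10, a JNK gene expressed mainly in the nervous system, has a long second intron with 5 further limb bud peaks of 8 to 12 tags, at 55692 to 70294 bp from the nearest exon by the lists. Rasal2 has 1 further limb bud peak of 8 tags in its first intron. In all, 5 ECC, 28 limb bud and 3 PNST peaks with a summit within 50 kb of a member were left out in this way, and 6 of the limb bud peaks lie inside the 2 genes just named. Some would add a tissue to a member with counted peaks in 1 tissue only. A limb bud peak of 10 tags lay 37306 bp from Map2k3, and an ECC peak of 6 tags 46426 bp from Map3k2. Other ECC peaks lay 40628 bp from Hras1 (5 tags) and 48984 and 9886 bp from Map4k5 (6 and 5 tags). PNST peaks lay 35532 bp from Mapk13 (9 tags) and 49386 bp from Sos1 (7 tags).

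Members without a counted peak differ in this respect. Beyond the end of Mapk9, a limb bud peak of 9 tags and a PNST peak of 19 tags overlap, with summits 19979 and 20223 bp from the gene, where the lists name Rasgef1c on both sides. Rasgrp1 has 2 limb bud peaks of 8 and 13 tags at 31829 and 46306 bp, Mapk6 has 1 of 12 tags at 40995 bp and Mapk7 has 2 of 8 and 10 tags at 43828 and 42312 bp. For Mapk11, Mapk12, Map2k7 and Nras the nearest summit of any tissue was 74702, 83605, 75250 and 55633 bp from the gene.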
